A study of Homo sapiens with 6 samples.

Results

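BCL2 family genes set whether a stressed cell lives or dies, and 10 of them were followed here in RPMI-8402 cells, a human T-cell acute lymphoblastic leukaemia (T-ALL) line, after induction of guide RNAs against MYC and MYCN. The genes were BCL2, BCL2L1, MCL1, BAX, BAK1, BCL2L11, PMAIP1, BBC3, BID and BAD, chosen by symbol from a table of 63677 genes, and each symbol matched 1 Ensembl gene ID. RNA was sequenced from cells that all carried Cas9 stably and grew in serum free of tetracycline. The DOX group (3 libraries) received doxycycline for 72 hours to switch on the guides. The DMSO group (3 libraries) received the solvent for the same time and is labelled as control genotype. The title names MYC and MYCN as the targets, the treatment text gives MYC alone, and DOX samples carry the genotype MYCN_knockout. Whether the cells were a clone or a pool, and whether replicate libraries stem from different cultures, is not stated in the labels, and the p-values rest on a spread that may be technical only. Doxycycline in cells with no guides was not analysed here, so effects of the drug and of the guides cannot be told apart.

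In the mitochondrial pathway of apoptosis, BAX and BAK1 are the effectors that perforate the outer mitochondrial membrane and release cytochrome c. BCL2, BCL-xL (from BCL2L1) and MCL1 hold them in check. BH3-only proteins, here BIM (BCL2L11), NOXA (PMAIP1), PUMA (BBC3), BID and BAD, carry stress signals and act by binding the survival proteins or the effectors. Excess MYC sensitises cells to apoptosis through this family, and T-ALL cells are known to differ in whether they rely on BCL2 or BCL-xL.

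MYC and MYCN dimerise with MAX and bind the E-box CACGTG, a sequence that is its own reverse complement. The promoters of the 3 genes that differed between the groups by DESeq2 (below) are shown to let that motif be seen in them. Each is the 150 bases just before the transcription start in RefSeq (build GRCh38.p14), 5′ to 3′ on the gene's strand, with every CACGTG in capitals. BAX lies at chr19:48954725-48954874 (plus strand), BCL2 at chr18:63319770-63319919 (minus strand) and PMAIP1 at chr18:59899846-59899995 (plus strand).
BAX: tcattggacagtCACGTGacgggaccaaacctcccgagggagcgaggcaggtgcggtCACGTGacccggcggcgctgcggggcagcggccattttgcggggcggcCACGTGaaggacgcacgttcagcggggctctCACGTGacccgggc
BCL2: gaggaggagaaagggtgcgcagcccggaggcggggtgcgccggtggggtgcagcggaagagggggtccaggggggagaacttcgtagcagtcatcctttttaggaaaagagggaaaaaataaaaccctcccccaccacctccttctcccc
PMAIP1: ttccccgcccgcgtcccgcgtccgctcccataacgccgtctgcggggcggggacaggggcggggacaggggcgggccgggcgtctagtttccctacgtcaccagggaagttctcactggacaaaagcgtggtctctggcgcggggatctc
The BAX stretch held 4 copies of CACGTG, which began 138, 93, 45 and 14 bases before the start, and the BCL2 and PMAIP1 stretches held 0. Among all 35116 RefSeq windows of 300 bases (250 before to 50 after a start), 2548 (7.26%) held the motif at least once and 5 (0.0142%) held at least 4 copies. The table had windows for 9 of the 10 genes (not MCL1). Besides BAX, the motif lay in the window of BBC3 (232 bases before the start) and, as a single copy, in the windows of a pair of alternative BID starts (106 bases before one start and 47 before the other). A match describes the letters in the window and is not a measured binding site.

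The libraries held 28602145 to 29204148 counts and each is named after its group and column number. The targeted MYCN stood at 46.2, 50.05 and 53.7 CPM (read counts relative to the TMM-adjusted library size) in DOX 12, 24 and 36, against 76.8, 110 and 86.9 CPM in DMSO 11, 23 and 35. MYC overlapped between the groups, at 193 to 206 CPM in DOX and 201 to 279 CPM in DMSO. DMSO 11 lay nearer to the DOX libraries (root mean square log2 distance 0.18 to 0.21 over 9311 genes) than to DMSO 23 and DMSO 35 (0.43 and 0.41). The fold changes of the 10 genes are therefore given with and without DMSO 11. Because DMSO 11 was singled out from these same counts, p-values without it describe the values and are no independent test. Of 10 T lineage markers, CD3D, CD3E, CD3G, CD247, CD7, CD5 and LCK were at 71.8 CPM or more in every library. The other markers were lower, with CD2 at 5.35 to 19.6 CPM and CD1A at 0.139 CPM or less. PTCRA, the pre-T-cell receptor chain, stood at 3.95 to 4.203 CPM in DOX and 5.47 to 7.74 CPM in DMSO, and DESeq2 called it lower (adjusted p = 0.00876). Of 10 markers of B, myeloid, red, stromal and endothelial cells, MS4A1 and PECAM1 had 0 counts in every library. The summed level of the 10 was 12.6 to 13.6 CPM in DOX and 5.75 to 10.0 CPM in DMSO. Much of it was COL1A1, a collagen gene that DESeq2 called higher (adjusted p = 0.0148), at 9.18 to 9.70 CPM in DOX and 2.44 to 7.11 CPM in DMSO; its part in the results was not tested.

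Over all 10 genes, the fitted fold changes of the 3 survival genes and BAX were positive in DOX, and those of BAK1 and the 5 BH3-only genes were negative. The median log2 fold change over all tested genes was -0.00307, so neither sign was rare. Set against DMSO 11 alone, the sign turned for BCL2L1 (-0.04), BAK1 (0.09) and BBC3 (0.25). The other genes kept theirs, but MCL1 (0.04) and BAD (-0.002) were close to 0. BAD turned to 0.02 without DMSO 23. EdgeR's quasi-likelihood test called 0 of the 10 at a Benjamini-Hochberg adjusted p of 0.05 over 15949 genes, of which it called 5 (0.0313%). At an unadjusted p under 0.05 edgeR had 2 of the 10 higher and 2 lower, where 26% of all tested genes passed in either direction. DESeq2's Wald test called BCL2 and BAX higher and PMAIP1 lower, 3 of 10, where it called 9.81% of 14093 genes (3.37% higher and 6.44% lower). With no filter on low counts edgeR also called BCL2, BAX and PMAIP1 (adjusted p = 0.00314, 0.0281 and 0.0125), among 1761 genes (5.56% of 31682 tested). The same 3 genes have an adjusted p under 0.05 in the authors' deposited table, at log2 fold changes of 0.56 for BCL2, 0.37 for BAX and -0.40 for PMAIP1. The authors' deposited table called 9.57% of the 14237 genes in it with an adjusted p. The groups did not overlap in 5 of the 10 genes (30.2% of all tested genes), with DOX above DMSO in 2 (14.6%) and below it in 3 (15.6%). In bulk RNA, fewer cells with a transcript and less transcript per cell cannot be told apart.

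**Figure D1:**
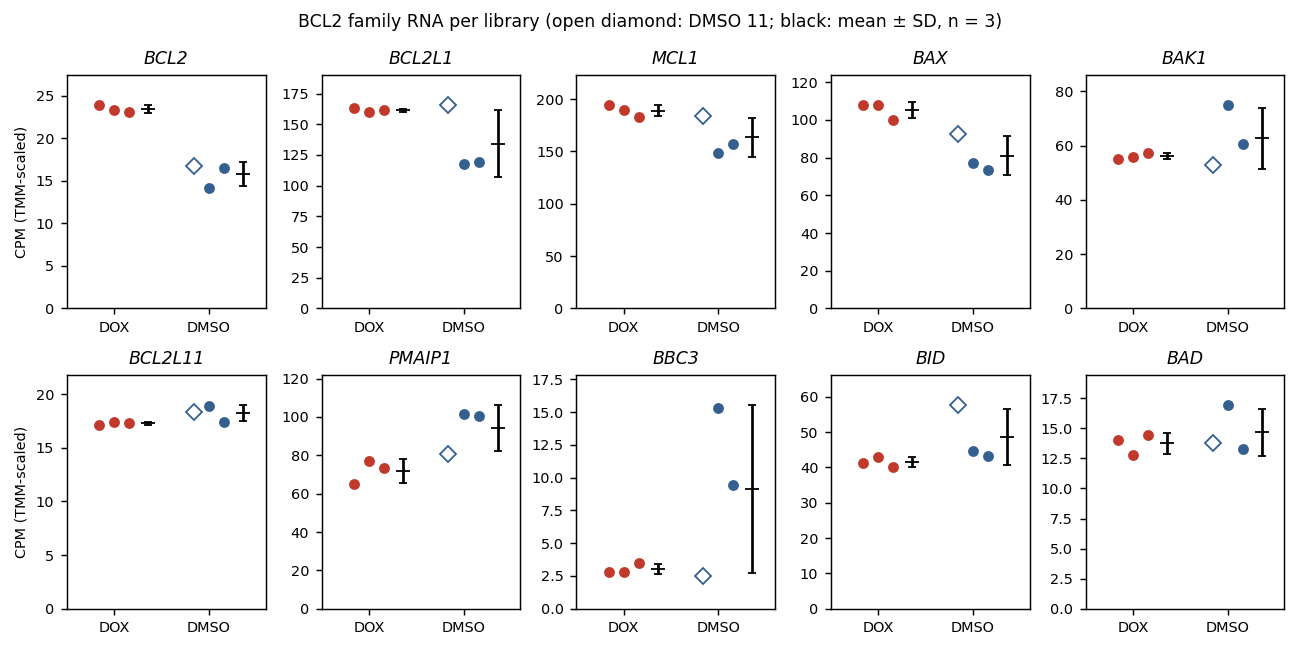
Level of each BCL2 family gene in CPM (y axis, from 0) in the 3 DOX libraries (red) and the 3 DMSO libraries (blue, with DMSO 11 as an open diamond); black bars are mean ± SD (n = 3). BCL2 and BAX were higher in every DOX library than in any DMSO library, and BBC3 was low in DMSO 11 (2.54 CPM) as in DOX while DMSO 23 and DMSO 35 held 15.3 and 9.43 CPM.

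Among the survival genes, BCL2, the founding member and the target of the drug venetoclax, showed the clearest difference. It stood at 23.9, 23.4 and 23.1 CPM in DOX 12, 24 and 36, against 16.7, 14.2 and 16.5 CPM in DMSO 11, 23 and 35. The groups did not overlap, and DMSO 11 lay close to DMSO 35. This gave a log2 fold change of 0.57 ± 0.10 (SE), or 1.48-fold, with an edgeR adjusted p of 0.0795 and a DESeq2 adjusted p of 0.000891. Over the settings tried, the adjusted p ran from 1.68e-05 to 0.344 and the log2 fold change with any 1 library left out from 0.49 to 0.61, the highest being 0.61 ± 0.09 without DMSO 11. The DOX mean was 0.49 above DMSO 11 alone and 0.61 above the mean of DMSO 23 and DMSO 35, on the log2 scale.

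BCL2L1, which encodes BCL-xL, stood at 163, 160 and 161 CPM in DOX 12, 24 and 36. The DMSO libraries held 166 CPM in DMSO 11, 118 CPM in DMSO 23 and 119 CPM in DMSO 35. DMSO 11 was thus the highest of all 6 libraries, and the other DMSO libraries lay below every DOX library. The log2 fold change was 0.27 ± 0.13 (edgeR adjusted p = 0.238). Without DMSO 11 it was 0.45 ± 0.06 and edgeR called it (adjusted p = 6.88e-06; range over the settings up to 0.541), and without DMSO 23 it was 0.18. In GENCODE 29, 43% of BCL2L1 exon bases overlap the antisense gene ABALON, which has no row in the count table.

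MCL1, a short-lived survival protein, stood at 194, 190 and 183 CPM in DOX 12, 24 and 36, against 184, 149 and 157 CPM in DMSO 11, 23 and 35. Only DOX 36 and DMSO 11 prevented a full separation. Its fold change was 0.21 ± 0.10 on the log2 scale (edgeR adjusted p = 0.213), and 0.30 ± 0.06 without DMSO 11 (adjusted p = 0.000582; range over the settings up to 0.495).

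The effectors differed in sign. BAX held 108, 108 and 100 CPM in DOX 12, 24 and 36, against 92.6, 77.1 and 73.6 CPM in DMSO 11, 23 and 35. Every DOX library was above every DMSO library, with DMSO 11 in between. On the log2 scale BAX differed by 0.38 ± 0.10, or 1.30-fold (edgeR adjusted p = 0.1001, DESeq2 adjusted p = 0.0355, range over the settings 6.18e-06 to 0.344), and the value without DMSO 11 was 0.48 ± 0.07. The DOX mean lay 0.18 above DMSO 11 and 0.48 above the other DMSO libraries on the log2 scale.

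BAK1, the other effector, held 55.2, 55.8 and 57.4 CPM in DOX 12, 24 and 36, against 52.8, 75.0 and 60.6 CPM in DMSO 11, 23 and 35. The groups overlapped, with DMSO 11 the lowest library. The log2 fold change was -0.16 ± 0.13 (edgeR adjusted p = 0.421). It was -0.27 without DMSO 11, where edgeR called it (adjusted p = 0.00769; range over the settings up to 0.938), and -0.02 without DMSO 23. The pseudogene BAK1P1, which can share reads with BAK1, had 32 to 36 counts in DOX and 24 to 42 counts in DMSO. BAK1 itself had 1593 to 1651 counts in DOX and 1479 to 2213 counts in DMSO.

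Of the BH3-only genes, PMAIP1, whose product NOXA binds MCL1, held 65.1, 77.1 and 73.4 CPM in DOX 12, 24 and 36, against 80.7, 102 and 101 CPM in DMSO 11, 23 and 35. Each DOX value was under each DMSO value, with DMSO 11 nearest to DOX. PMAIP1 had a log2 fold change of -0.39 ± 0.11 (edgeR adjusted p = 0.105, DESeq2 adjusted p = 0.0424, range over the settings 1.20e-05 to 0.353), and -0.49 ± 0.07 without DMSO 11. On the log2 scale, the mean of DOX minus DMSO 11 was -0.17 and the mean of DOX minus the other DMSO libraries was -0.49.

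BBC3, whose product PUMA binds all the survival proteins, had the largest fold change of the 10 genes and the largest spread. It held 2.81, 2.84 and 3.51 CPM in DOX 12, 24 and 36, from 81, 81 and 101 counts. DMSO 11 held 2.54 CPM from 71 counts, while DMSO 23 and DMSO 35 held 15.3 and 9.43 CPM from 453 and 279 counts. The lowest of all 6 libraries was therefore a DMSO library, and the other DMSO libraries were the highest. The log2 fold change was -1.58 ± 0.52 and passed neither test (edgeR adjusted p = 0.125, DESeq2 adjusted p = 0.119). It was -2.02 ± 0.19 without DMSO 11 (adjusted p = 1.49e-06; range over the settings up to 0.391) and -0.98 without DMSO 23. Set against DMSO 11 only, the mean of DOX was 0.25 higher on the log2 scale.

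BID, which links death receptors to mitochondria once caspase 8 cuts it, was marked by DMSO 11 in the other way. It held 41.2, 42.9 and 40.2 CPM in DOX 12, 24 and 36, against 57.6, 44.8 and 43.3 CPM in DMSO 11, 23 and 35. All DOX libraries were the lowest, yet DMSO 23 and DMSO 35 lay close to them. BID had a log2 fold change of -0.23 ± 0.12 (edgeR adjusted p = 0.256), and -0.09 ± 0.07 without DMSO 11 (adjusted p = 0.321).

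BCL2L11, which encodes BIM, a potent killer of lymphocytes, had the lowest coefficient of variation of the 10 in both groups (0.672% in DOX and 4.12% in DMSO). It held 17.2, 17.4 and 17.3 CPM in DOX 12, 24 and 36, against 18.3, 18.9 and 17.4 CPM in DMSO 11, 23 and 35. The DOX libraries were the lowest by a small margin, with a log2 fold change of -0.07 ± 0.09 (edgeR adjusted p = 0.625). With 1 library left out it ran from -0.11 to -0.05, and it was -0.07 ± 0.09 without DMSO 11. A non-coding gene on the opposite strand, MIR4435-2HG, covers 10.9% of the BCL2L11 exon bases in GENCODE 29. It had 469 to 642 counts over the 6 libraries, beside 495 to 558 for BCL2L11. The strand setting of the counting is not given in the sources used here.

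BAD, a BH3-only protein that growth factor signalling holds inactive by phosphorylation, held 14.0, 12.7 and 14.5 CPM in DOX 12, 24 and 36, against 13.8, 16.9 and 13.3 CPM in DMSO 11, 23 and 35. The groups overlapped, and DMSO 23 was the highest. The log2 fold change was -0.09 ± 0.13 (edgeR adjusted p = 0.663) and turned to 0.02 without DMSO 23, while it was -0.14 ± 0.11 without DMSO 11. GPR137 on the opposite strand overlaps 23.7% of BAD exon bases. It had 564 to 789 counts over the 6 libraries, more than the 364 to 499 of BAD, and shared reads were not tested.

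**Figure D2:**
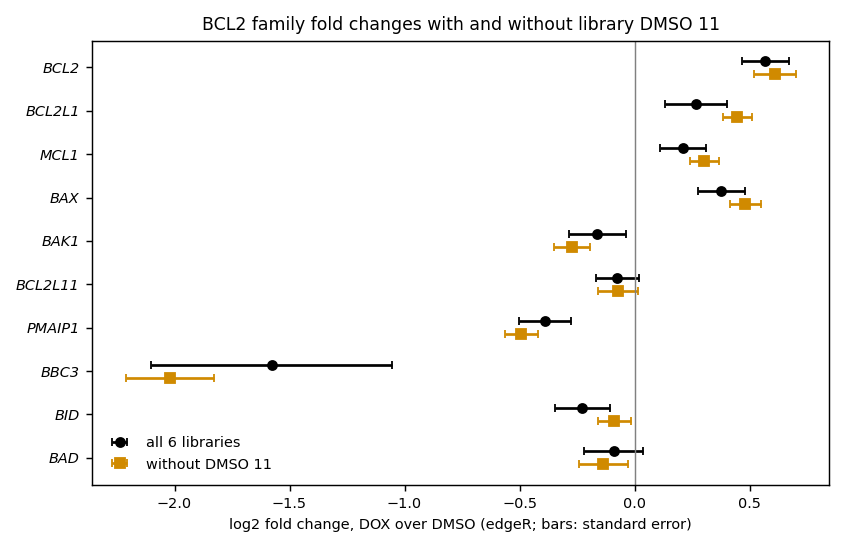
Log2 fold change of each gene, DOX over DMSO, from edgeR (x axis; bars are standard errors), with all 6 libraries (black circles) and without DMSO 11 (orange squares). BCL2 (0.57 and 0.61) and BCL2L11 (-0.07 and -0.07) moved little when DMSO 11 was left out, while BCL2L1 stood at 0.45 and BBC3 at -2.02.

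The number of edgeR calls in the family rose when DMSO 11 was left out, and DESeq2 was not run with a library left out. Without DMSO 11, edgeR called 7 of the 10 genes, with BCL2, BCL2L1, MCL1 and BAX higher and BAK1, PMAIP1 and BBC3 lower. That fit called 49.4% of all 16412 genes tested in it, 23.7% higher and 25.7% lower. With any of the other 5 libraries left out it called 0 of the 10, and 3 to 5 of them had an unadjusted p under 0.05; those fits called 0 genes of the whole table, with 13.9% to 16.1% of all genes under that p. Two-sided exact permutation tests of log2 CPM gave p = 0.1, the smallest that 3 libraries against 3 allow, for BCL2, BAX, PMAIP1, BID and BCL2L11, and p = 0.2 to 0.7 for the other 5 genes. In 7 of the 10 genes DMSO 11 lay nearer to the DOX mean than to DMSO 23 and DMSO 35, as in 73.7% of the 9311 genes with at least 10 CPM. The coefficient of variation was larger in DMSO than in DOX for 10 of the 10 genes (median 3.11% in DOX and 13.0% in DMSO), and for 81.0% of all tested genes.

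Levels can be compared between genes only per transcript length, so CPM were divided by the merged exon length of each gene in GENCODE 29. Merged exons overstate the length of genes with many alternative exons, such as BCL2 and BCL2L11, and so understate their level. In DOX, the order of the CPM per kb of exon was BCL2L1 (48.7 ± 0.405, SD, n = 3), MCL1 (43.3 ± 1.27), BAX (40.7 ± 1.71), PMAIP1 (32.2 ± 2.74), BAK1 (25.4 ± 0.516), BID (9.33 ± 0.307), BAD (8.05 ± 0.524), BCL2L11 (2.60 ± 0.0174), BCL2 (1.99 ± 0.0364) and BBC3 (0.960 ± 0.126). No neighbours in that order overlapped between the DOX libraries, and MCL1 and BAX came closest (lowest MCL1 41.9, highest BAX 41.7). In DMSO the ranges of PMAIP1 (36.1 to 45.4), BCL2L1 (35.5 to 49.98) and MCL1 (34.1 to 42.1) overlapped, so their order could not be told. BAX (28.5 to 35.8) overlapped BCL2L1 and MCL1 there, and BAK1 (23.9 to 33.9) overlapped BAX. BID (9.73 to 13.0) and BAD (7.78 to 9.90) overlapped as well. BCL2L1 and MCL1 were thus the abundant survival transcripts in both groups on this scale, and BCL2 was low (1.20 to 1.42 in DMSO). BBC3 ranged from 0.798 to 4.83 CPM per kb over the DMSO libraries, which placed it below or above BCL2 depending on the library.

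**Figure D3:**
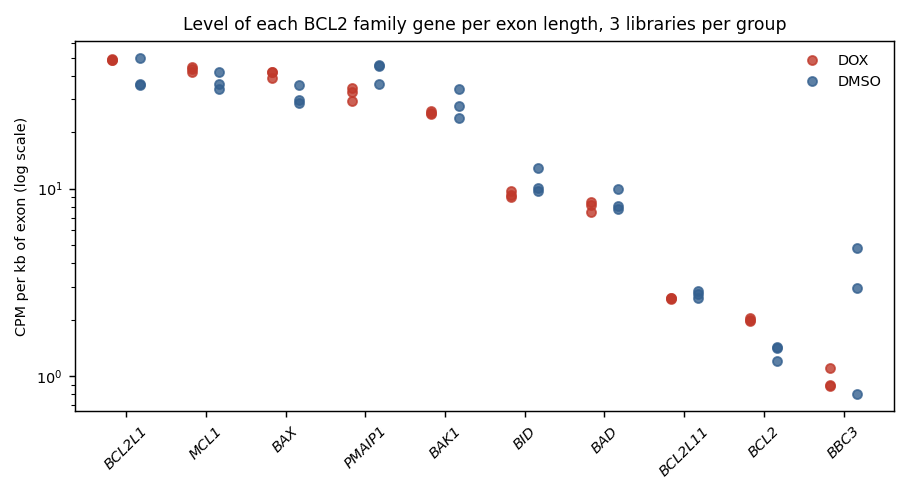
CPM per kb of merged exon (y axis, log scale) of the 10 genes, ordered by their DOX mean, in 3 DOX (red) and 3 DMSO (blue) libraries. BCL2L1, MCL1, BAX, PMAIP1 and BAK1 reach at least 23.9 in every library, and BCL2 and BCL2L11 at most 2.84.

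For the 3 genes called by DESeq2, the genes with the most similar profile over the 6 libraries were sought among 9302 other genes with at least 10 CPM, by the root mean square difference of centred log2 CPM. Nearest to BCL2 were PLXNA3, a plexin receptor (difference 0.0227), HK2, a hexokinase of glycolysis (0.0474), and DYNC1LI2, a dynein light intermediate chain (0.0638), where the median over all genes was 0.322. PLXNA3 averaged 24.9 CPM in DOX and 16.6 CPM in DMSO. Nearest to BAX were BMP1, a procollagen protease (0.0244), CLN8 (0.0245) and KIAA1191 (0.0301), with a median of 0.248. Nearest to PMAIP1 were TRAPPC2, a vesicle tethering subunit (0.0284), RAP1A, a small GTPase (0.0314), and ERCC8, a DNA repair gene (0.0365), with a median of 0.252. These distances describe 6 libraries that share the same group structure.

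The rest of the apoptosis machinery was read from 10 further lists with 64 genes, of which 58 were tested. EdgeR called 0 of the 58. At an unadjusted p under 0.05 it had 3 higher and 7 lower (17.2%, against 26% of all tested genes). DESeq2 called 2 higher and 2 lower (6.90%, against 9.81% of all genes with an adjusted p). Their median log2 fold change was 0.04, against -0.00307 over all tested genes. Without DMSO 11 edgeR called 16 higher and 14 lower, 51.7% of the 58, against 49.4% of all genes in that fit. Each of these shares of calls was near or below that over all genes.

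BNIP3, a BH3-like mitophagy receptor known to respond to hypoxia, had the largest fold change in these lists. It held 4.23, 5.08 and 4.42 CPM in DOX 12, 24 and 36, against 2.32, 1.86 and 1.79 CPM in DMSO 11, 23 and 35, with no overlap. Its log2 fold change was 1.20 ± 0.17 (edgeR adjusted p = 0.0666, DESeq2 adjusted p = 5.10e-05). BCL2L13, another mitophagy receptor with BCL2 homology, held 43.7, 45.4 and 49.0 CPM in DOX against 58.0, 72.3 and 70.4 CPM in DMSO (-0.54 ± 0.11, edgeR adjusted p = 0.0846, DESeq2 adjusted p = 0.00193). Of the 8 tested BCL2-like and BNIP genes these were the only DESeq2 calls, and 3 of the others lay within 0.1 of 0 on the log2 scale.

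RIPK1, the kinase that steers death receptor signals, held 58.8, 55.2 and 51.8 CPM in DOX 12, 24 and 36, against 44.2, 38.5 and 41.8 CPM in DMSO 11, 23 and 35. Its log2 fold change was 0.41 ± 0.09 (edgeR adjusted p = 0.0892, DESeq2 adjusted p = 0.00959), and it was the DESeq2 call among 8 tested death receptor genes. FOXO3, a transcription factor known to activate BCL2L11 and BBC3, held 59.2, 61.2 and 61.7 CPM in DOX against 65.6, 88.8 and 101 CPM in DMSO (-0.49 ± 0.14, edgeR adjusted p = 0.108, DESeq2 adjusted p = 0.0366). DMSO 11 was the DMSO library nearest to DOX in both genes. FOXO3 was the call among 9 tested transcription factors that control the family.

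In the other lists neither edgeR nor DESeq2 called a gene with all 6 libraries and the filter on low counts. Of the other survival genes only BCL2L2 (BCL-w) was tested, at 2.82 to 3.08 CPM in DOX and 2.502 to 2.75 CPM in DMSO (log2 fold change 0.17 ± 0.15). BMF, a BH3-only gene, held 27.2 to 29.3 CPM in DOX and 29.6 to 34.5 CPM in DMSO (-0.22 ± 0.10), and BIK was at -0.07 ± 0.15. The channel VDAC2, which brings BAK to the outer membrane, was at -0.18 ± 0.09 and VDAC1 at 0.28 ± 0.23. Of the enzymes that control MCL1 turnover, the ligase HUWE1 was at 0.02 ± 0.09 and the deubiquitinase USP9X at 0.07 ± 0.09. Of the apoptosome list, cytochrome c (CYCS) was at 0.08 ± 0.10 and AIFM1 at -0.25 ± 0.08. CASP2 was at 0.40 ± 0.15 and DFFA, the inhibitor of the apoptotic nuclease, at -0.02 ± 0.08. The inhibitors of apoptosis BIRC5 (survivin) and BIRC6 were at 0.36 ± 0.19 and 0.16 ± 0.10. The edgeR adjusted p-values of the genes in this group ran from 0.119 for AIFM1 to 0.905 for HUWE1. Without the filter edgeR called CASP2 higher (adjusted p = 0.0326). Without DMSO 11 it called CASP2, VDAC1 and BIRC5 higher (log2 fold changes 0.60, 0.64 and 0.63) and BMF, VDAC2 and AIFM1 lower (-0.28, -0.20 and -0.22).

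**Figure D4:**
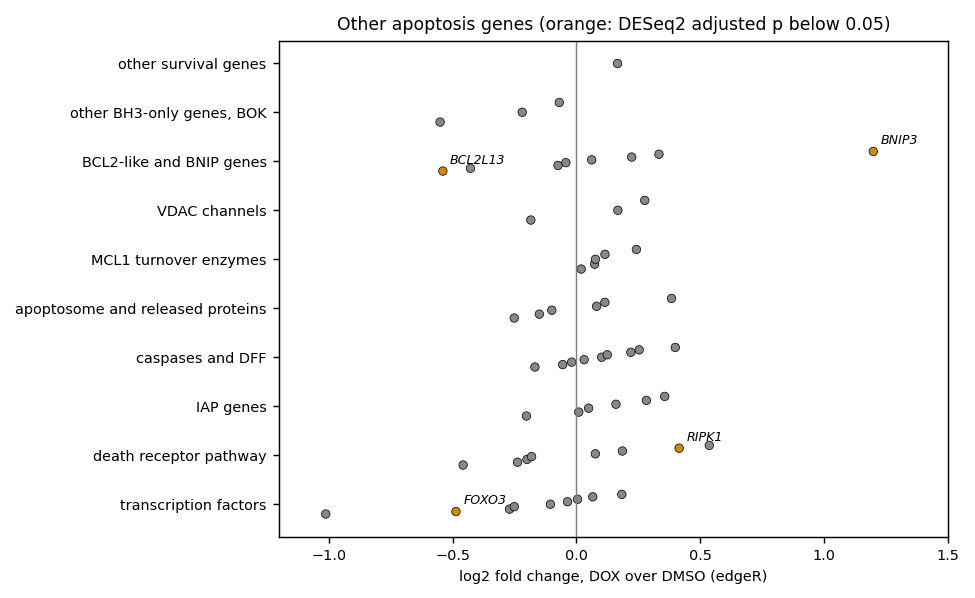
Log2 fold change, DOX over DMSO, of each tested gene in the 10 further apoptosis lists (x axis; 1 point per gene, spread vertically within its list), with the 4 genes that DESeq2 called in orange. BNIP3 and RIPK1 lie to the right and BCL2L13 and FOXO3 to the left, and 54 of the 58 points are grey.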

How the data were processed

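Strand-specific paired-end RNA libraries were sequenced, per the labels' protocols. The authors deposited raw read counts per Ensembl gene and their own comparison, which per the file headers holds a mean normalised signal, log2 fold changes with standard errors, a test score and p-values. Per the submitters' processing notes, the tools included DESeq2 1.12.4, featureCounts and STAR 2.5.2a, with hg19 as the build and roles unstated; the sources used here give no annotation release or strand setting. Count columns show the group but no replicate number of the labels. The 92 spike-in rows (0 counts) were left out.

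All genes were tested with edgeR 4.0.16 (R 4.3.3; filterByExpr, TMM, robust quasi-likelihood F test, group as only term, Benjamini-Hochberg). The standard error is the log2 fold change divided by the square root of F. DESeq2 1.42.0 and limma 3.58.1 (voom), other scalings and filters, and leaving out each library were alternatives. Log2 CPM used a prior count of 2. Scripts were tested on simulated data.

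The genes and lists were chosen with earlier results of these data known. Named besides the 10 genes were MYC and MYCN, up to 3 called genes per list (smallest edgeR p) or its 2 most expressed, and the 3 nearest profiles of each called gene. Marker genes, the pseudogene and overlapping genes were named as checks. Exon lengths and overlaps came from GENCODE 29 (GRCh38) by gene ID, with none of its coordinates printed. Figures were drawn with matplotlib 3.10.9.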

Additional observations from a re-analysis of the deposited data

How the results depend on the processing

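EdgeR called 5 genes over all (0.0313%), 0 of the 10 BCL2 family genes and 0 of the 58 other apoptosis genes. With DESeq2 the numbers were 1383 (9.81% of genes with an adjusted p), 3 and 4. Without a filter on low counts edgeR's were 1761 (5.56%), 3 and 5. With 1 library left out they ran from 0 to 8109 (49.4%) over all genes, from 0 to 7 in the family and from 0 to 30 in the other lists. Each highest value was reached without DMSO 11. At an adjusted p of 0.01 edgeR called 1 gene. Voom, 3 other scalings, a stricter filter and a non-robust fit called 5 or 6 genes and 0 in the family. Of 140 alternative fold changes of the 10 genes, 126 kept their direction and their side of the threshold, 13 passed it and 1 turned its sign: BAD ran from -0.161 to 0.0212 with 1 library left out. Of the other named genes, BIK ran from -0.133 to 0.00503, HUWE1 from -0.0159 to 0.0600 and DFFA from -0.0500 to 0.0317 with 1 library left out, and DFFA was at 0.0144 with upper quartile scaling. The cause was not tested. No paired analysis was possible because the count columns carry none of the replicate numbers of the labels. With 3 libraries per group, differences like that of MCL1 (0.21) did not pass edgeR's test unless DMSO 11 was left out. In the main edgeR fit larger ones did not pass either, such as BCL2 (0.57), BNIP3 (1.20) and BBC3 (-1.58).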

Other observations

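The genes in this paragraph were chosen after their values were seen. DDIT3, which encodes the stress factor CHOP, held 21.5, 25.2 and 23.2 CPM in DOX 12, 24 and 36, against 17.5, 68.8 and 54.6 CPM in DMSO 11, 23 and 35. TNFRSF10B, the death receptor DR5, held 40.4, 40.1 and 42.7 CPM in DOX against 35.9, 73.5 and 59.7 CPM in DMSO. As for BBC3, DMSO 11 was the lowest of the 6 libraries in both genes and DMSO 23 the highest. Their log2 fold changes were -1.01 ± 0.40 and -0.46 ± 0.22 (edgeR adjusted p = 0.164 and 0.222). Without DMSO 11 they were -1.41 and -0.70, where edgeR called both (adjusted p = 2.31e-09 and 8.90e-07). That fit called 49.4% of all genes tested in it. As both genes were picked with their values known, these p-values are descriptive only.

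In VDAC1 and BIRC5, DMSO 11 was the highest DMSO library, and DMSO 23 and DMSO 35 were nearly equal. VDAC1 held 302 to 331 CPM in DOX, against 382, 206 and 204 CPM in DMSO 11, 23 and 35. BIRC5 held 116 to 134 CPM in DOX, against 132, 80.8 and 80.6 CPM in DMSO 11, 23 and 35. Without DMSO 11 edgeR called both higher in DOX, at log2 fold changes of 0.64 and 0.63, in a fit that called 49.4% of all genes. Both calls are descriptive only, as DMSO 11 was singled out from these same counts.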
